A study of Eleusine coracana with 4 samples.

Results

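Leaves of the finger millet genotype Trichy 1 were compared with leaves of the genotype CO12, both from well-watered plants that received no sodium chloride. The comparison rests on 2 of the 4 libraries of the series, 1 library per genotype. A locus entered it when at least 20 reads were counted in either library, which held for 1034 of the 55986 loci in the tables. CO12 control was sequenced 1.87 times as deeply as Trichy 1 control, so its reads were also thinned to the Trichy 1 total, which left 747.8 ± 4.3 loci at that minimum (mean ± SD of 100 draws). The loci with a highest count of exactly 20 numbered 40, and those with exactly 19, just outside, numbered 55.

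Finger millet (Eleusine coracana) is a C4 cereal, in which carbon is first fixed in mesophyll cells and released again around Rubisco in the bundle sheath. It is an allopolyploid, so that many genes exist as similar copies from each parental genome. In RNA from green leaves that is depleted of ribosomal RNA but not selected for poly(A) tails, transcripts of chloroplast genes and remaining ribosomal RNA can be abundant beside nuclear messenger RNA.

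The Trichy 1 group without salt and the CO12 group without salt came from the same growth scheme, in perforated pots of fertilized field soil, and were kept watered. The Trichy 1 and CO12 groups under salt, used here as separate libraries of the same genotypes, received 300 mM NaCl at the stage of 4 leaves, 20 days after sowing. In every group the uppermost 2 fully expanded leaves near the shoot apex were taken. The labels say neither how many plants went into a library nor which genotype is the tolerant one that the series title names. With 1 library per genotype, a difference between genotypes cannot be told apart from a difference between plants, RNA preparations or libraries, and no test was possible. The intervals given here are 95% intervals that cover counting error only. In whole leaves, fewer cells of a type and less RNA per cell cannot be told apart either.

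The deposited tables name loci only by identifiers of the LOC_Os form, which rice loci carry, and pair none of them with a gene name. No role is therefore given to any locus, the leaf label could not be checked against marker genes, and chromosome numbers are those in the identifiers. Trichy 1 control had 3347497 reads, of which 90.7% were unique, meaning that they matched 1 place, and CO12 control had 6272817 reads, of which 89.6% were unique. The salt libraries had 2406821 (Trichy 1) and 1831353 (CO12) reads. At equal depth, 15003 loci had at least 1 read in Trichy 1 control and 15524.3 ± 63.5 in CO12 control, and 8756.8 ± 39.3 had reads in both (SD over the draws). Levels are given as RPM, the reads of a locus scaled to a library total of 1000000, or, between loci, as RPKM, which is RPM per kilobase.

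The same 5 loci led both libraries and held 82.2% of the reads of Trichy 1 control and 82.6% of CO12 control, but in different proportions. LOC_Os09g01000 on chromosome 9 took 29.4% of the reads in Trichy 1 control and 21.3% in CO12 control, 8.15 percentage points more in Trichy 1. The size of this difference changed with other scalings, while its direction did not. Shares of a library's total are not independent of each other. LOC_Os01g57968 on chromosome 1 took 24.0% against 28.0%, LOC_Os10g21190 on chromosome 10 took 15.9% against 19.6%, and LOC_Os03g24640 on chromosome 3 took 6.59% against 7.81%. LOC_Os04g16722 on chromosome 4 took 6.30% against 5.97%, a difference whose direction turned with other scalings. Per kilobase, LOC_Os01g57968 stood highest in both, with 136014.1 RPKM in Trichy 1 control and 158399.2 RPKM in CO12 control. LOC_Os09g01000 was second in Trichy 1 control with 100450.3 RPKM, where LOC_Os10g21190 had 75495.3 RPKM. In CO12 control that order was the opposite, with 72603.8 RPKM for LOC_Os09g01000 and 92999.8 RPKM for LOC_Os10g21190. To turn one library's shares of reads into the other's, 11.3% of all reads would have to change locus, and 10.4% lay in the 23 loci that were among the 20 most abundant of either library. Outside its own 20 most abundant loci, Trichy 1 control had 4.47% of its reads and CO12 control 3.90%.

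Most of the other loci were close between the genotypes. Of the 1034 loci, 638 (61.7%) were less than 1.5-fold apart and 861 (83.3%) less than 2-fold, and the counting interval of the ratio included equality for 658 (63.6%). At equal depth, 85.0 ± 4.8 loci (11.4% of those at the minimum) had at least a 2-fold higher level in Trichy 1 and 46.7 ± 3.5 (6.24%) a lower one by that much. As deposited, 78 loci (7.54%) passed 2-fold upwards in Trichy 1 and 95 (9.19%) downwards. The deeper CO12 library lets loci that are low in Trichy 1 reach the minimum count more often, so the split by direction follows depth. It also follows the scaling. Totals put the median locus at a log2 ratio of 0.21 at equal depth, and relative to that median 54.4 loci were higher and 71.2 lower. With totals that leave out the 20 most abundant loci, 55.5 were higher and 69.8 lower. With trimmed-mean (TMM) factors the split was 66.7 and 59.6, or 31.9 and 107.2 with TMM factors over all loci, so neither direction prevailed under all scalings. None of the called loci had 0 reads in either library.

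**Figure D1:**
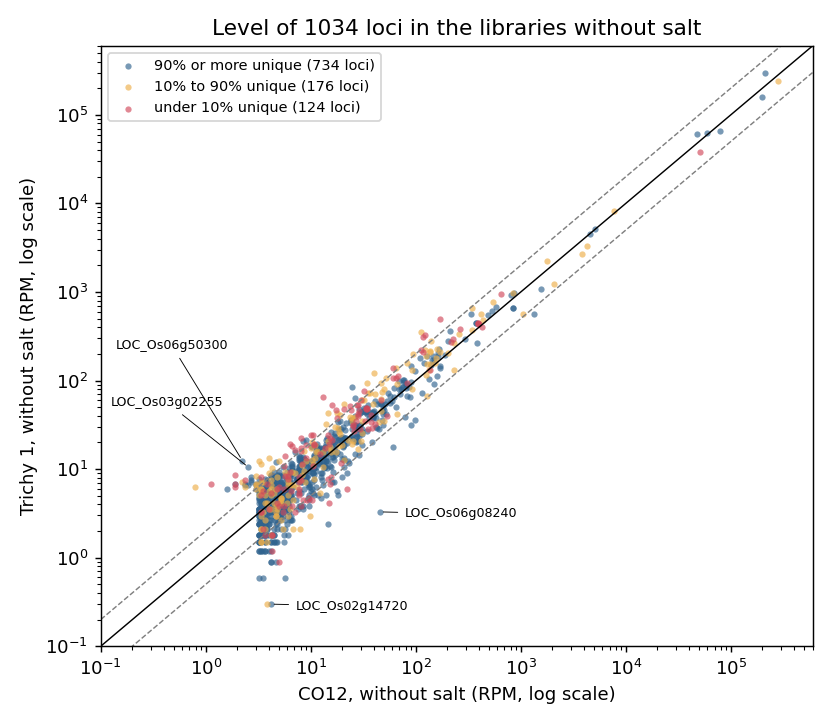
Level of each of the 1034 loci in Trichy 1 control (vertical axis) and CO12 control (horizontal axis), in RPM on log scales, coloured by the share of reads that are unique. The solid line marks equality and the dashed lines 2-fold ratios; with the prior count, 78 loci counted as higher and 95 as lower in Trichy 1, and 81 of the 95 had a mean under 10 RPM.

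As deposited, loci lower in Trichy 1 lay at low levels more often than loci that were higher. A mean under 10 RPM was found for 81 of the 95 lower loci and 40 of the 78 higher ones. Among the 580 loci with a mean under 10 RPM, 40 (6.90%) passed 2-fold upwards in Trichy 1 and 81 (14%) downwards as deposited. The minimum count is reached more easily in the deeper CO12 library, which favours lower loci at low levels. The 95 lower loci had a median of 6 reads in Trichy 1 control and 34 in CO12 control. Classes by level were not counted at equal depth, so this split is not read as a property of low levels. Among the 129 loci between 30 and 100 RPM, 16 (12.4%) passed 2-fold upwards and 4 (3.10%) downwards. Among the 77 loci between 100 and 1000 RPM, 7 (9.09%) were at least 2-fold higher, and LOC_Os02g02524 alone was lower. LOC_Os02g02524 on chromosome 2 (5451 bp), singled out after its values were seen, had 562.8 RPM in Trichy 1 control and 1345.3 RPM in CO12 control, a ratio of 0.418 (0.398 to 0.440), and under salt 377.7 RPM in Trichy 1 and 645.4 RPM in CO12. Nearly all of its reads were unique. None of the 15 loci over 1000 RPM was 2-fold apart. The counting interval lay wholly beyond 2-fold for 19 loci higher in Trichy 1 (1.84%) and 12 lower (1.16%).

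Among the loci whose interval lay beyond 2-fold and whose reads were at least 50% unique, LOC_Os06g50300 and LOC_Os03g02255 had the 2 highest ratios and LOC_Os06g08240 and LOC_Os02g14720 the 2 lowest. LOC_Os06g50300 on chromosome 6 (6087 bp) had 42 reads or 12.5 RPM in Trichy 1 control against 14 reads or 2.23 RPM in CO12 control, a ratio of 5.62 (3.01 to 11.1). Under salt it had the other order, with 8.73 RPM in Trichy 1 and 16.9 RPM in CO12, a ratio of 0.515 (0.282 to 0.926). CO12 control was thus the lowest of the 4 libraries and CO12 under salt the highest.

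LOC_Os03g02255 on chromosome 3 (430 bp) had 35 reads or 10.5 RPM in Trichy 1 control against 16 reads or 2.55 RPM in CO12 control, a ratio of 4.10 (2.21 to 7.93). Under salt it had 9.97 RPM in Trichy 1 and 8.19 RPM in CO12, and the interval of that ratio, 0.613 to 2.5, included equality. Here CO12 control stood below the other 3 libraries, which lay within their counting intervals of each other.

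LOC_Os06g08240 on chromosome 6 (2430 bp) had 11 reads or 3.29 RPM in Trichy 1 control against 284 reads or 45.3 RPM in CO12 control. It was 13.8-fold lower in Trichy 1 (7.58 to 27.9). Under salt it was also lower in Trichy 1, with 4.99 RPM against 16.9 RPM in CO12, a ratio of 0.295 (0.138 to 0.590). Both Trichy 1 libraries lay below both CO12 libraries.

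LOC_Os02g14720 on chromosome 2 (6965 bp) had 1 read or 0.299 RPM in Trichy 1 control against 26 reads or 4.14 RPM in CO12 control, and was 13.9-fold lower (2.28 to 569). Under salt it had 9 reads or 3.74 RPM in Trichy 1 and 8 reads or 4.37 RPM in CO12. Trichy 1 control was the one library that stood apart.

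**Figure D2:**
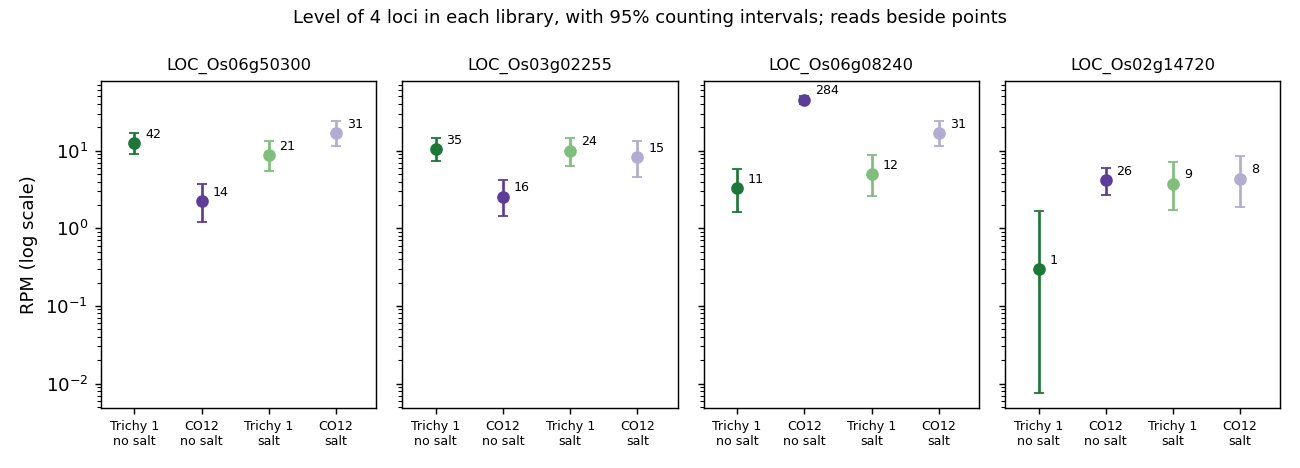
Level of the 4 loci in RPM on a log scale, in Trichy 1 and CO12 without salt and then under salt, 1 library per point, with 95% exact Poisson intervals and the number of reads beside each point. LOC_Os06g08240 is lower in both Trichy 1 libraries (3.29 and 4.99 RPM) than in both CO12 libraries (45.3 and 16.9 RPM), and LOC_Os06g50300 has opposite orders without and under salt.

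The loci higher in Trichy 1 and those lower differed in how many of their reads were unique. Over both control libraries, 124 of the 1034 loci had under 10% unique reads, 176 had 10% to 90% and 734 had 90% or more. As deposited, 54 of the 78 loci that were at least 2-fold higher lay in the first 2 of these classes (26 and 28), as did 21 of the 95 that were lower (11 and 10). At equal depth, 28.0 ± 1.9 of 108.6 loci with under 10% unique reads were at least 2-fold higher in Trichy 1 and 6.9 ± 1.5 lower. Of 142.2 loci with 10% to 90%, 27.2 ± 3.0 were higher and 4.8 ± 1.0 lower. Of 497.0 loci with 90% or more, 29.9 ± 3.1 were higher and 34.9 ± 3.2 lower. In this last class lower loci led with other scalings, with 23.3 higher and 43.8 lower by TMM factors and 19.3 and 50.3 by totals without the 20 most abundant loci, and as deposited, with 24 and 74.

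The shift was also seen in the medians. At equal depth the median log2 ratio was 0.47 with under 10% unique reads, 0.41 with 10% to 90% and 0.13 with 90% or more. A change of scaling moves these medians together and leaves their differences, 0.34 and 0.28, as they are. With TMM factors over all loci the higher loci no longer outnumbered the lower ones in any class, at 11.4 against 14.8, 10.5 against 15.2 and 10 against 77.3. Under salt, over the loci with at least 20 reads in either salt library, the medians were -0.13 over 86 loci, 0.07 over 120 and 0.02 over 338. The class with the fewest unique reads thus stood 0.38 above the class with the most without salt, as deposited, and 0.15 below it under salt. These 2 differences cover unlike sets, 124 and 734 loci without salt but 86 and 338 under salt. They are therefore not read as a change with salt. The placement of reads with several matching loci is not given in the sources used here, and its part in these differences was not tested.

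**Figure D3:**
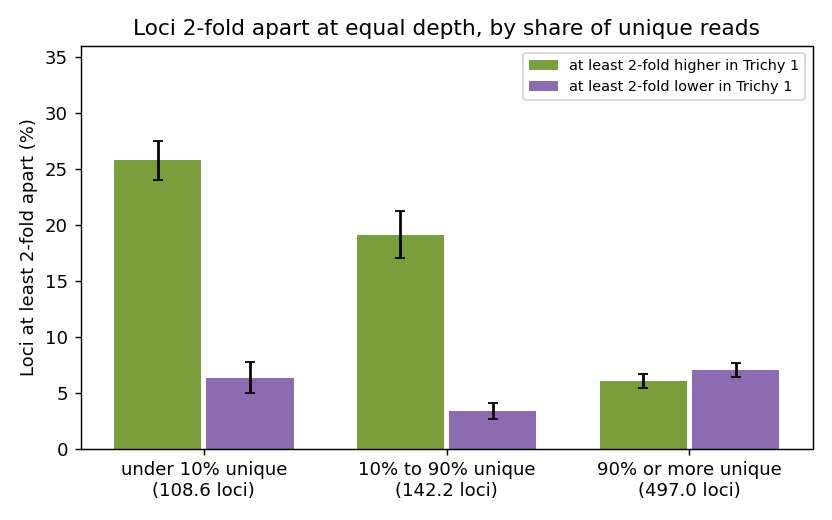
Share of loci whose level was 2-fold or more higher (left bar of each pair) and lower (right bar) in Trichy 1 control than in CO12 control at equal depth, by the share of unique reads, as a percentage of the loci with at least 20 reads in either library. Bars are means and error bars SDs over 100 thinning draws, with 28.0, 27.2 and 29.9 loci higher and 6.9, 4.8 and 34.9 lower from left to right.

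In loci with 10% to 90% unique reads, the ratio could be taken from the unique reads alone. Of the 28 such loci that were at least 2-fold higher in Trichy 1, 18 had at least 20 unique reads in either library. All 18 were higher in Trichy 1 by unique reads as well, and 13 were at least 2-fold higher. Their ratio had a median of 2.46 (range 1.82 to 3.82) from unique reads and 2.48 (1.26 to 5.51) from the remaining reads, each scaled to its own total. These loci were called from the sum of both kinds of reads, so that their direction is not independent of the call.

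Among the 19 loci whose interval lay wholly beyond 2-fold higher, 8 had under 10% unique reads, 8 had 10% to 90%, and LOC_Os03g02255, LOC_Os06g50300 and LOC_Os04g55300 had 90% or more. LOC_Os04g55300 on chromosome 4 (2452 bp) had 85.4 RPM in Trichy 1 control and 24.9 RPM in CO12 control, a ratio of 3.44 (2.82 to 4.20), and 43.6 and 53.5 RPM under salt in Trichy 1 and CO12. Of the 12 loci beyond 2-fold lower, 9 had 90% or more unique reads. The locus with most reads among all those at least 2-fold higher, LOC_Os10g38229 on chromosome 10 (2253 bp), had 489.9 RPM in Trichy 1 control and 170.6 RPM in CO12 control, a ratio of 2.87 (2.66 to 3.10). Under salt it had 158.3 RPM in Trichy 1 and 103.7 RPM in CO12, a ratio of 1.53 (1.28 to 1.83). Only 4 of its 1640 reads in Trichy 1 control and 2 of its 1070 in CO12 control were unique. LOC_Os04g55300 and LOC_Os10g38229 were chosen once their values had been seen.

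Loci higher in Trichy 1 were shorter in the median than loci that were lower. Their deposited gene length had a median of 1574 bp, against 3614 bp for the 95 lower loci and 3228.5 bp for all 1034. Length also followed the share of unique reads. Its median was 1596 bp with under 10% unique reads, 2765.5 bp with 10% to 90% and 3542.5 bp with 90% or more. Whether length differed apart from these classes was not tested. Another higher locus lay within 10 rows of the tables for 35 of the 78 higher loci, while 2 of the 95 lower loci had a lower neighbour so close. The rows follow the order of identifiers for the most part, but not throughout. Of the 861 loci less than 2-fold apart, which are many more, 344 had another of their own kind so close. Of the higher loci, 29 fell into 6 runs of at least 3, on chromosomes 1, 2, 4 and 10, and the 57 loci at the minimum in these runs included none that was 2-fold lower. The runs have median log2 ratios between 0.75 and 1.40 without salt and between -0.09 and 0.44 under salt. The run with the highest median, from LOC_Os10g38206 to LOC_Os10g38274 on chromosome 10, held 7 loci, 5 of them higher, with a summed level of 1132.5 RPM in Trichy 1 control and 458.6 RPM in CO12 control. The summed level was also higher in Trichy 1 control in the run on chromosome 2 and the other 2 on chromosome 10. It was lower in the run on chromosome 1, at 246560.0 against 285484.2 RPM, and in the run on chromosome 4, at 38944.3 against 51640.6 RPM. In the run on chromosome 1, LOC_Os01g57968 alone held 240201.0 RPM in Trichy 1 control and 279733.0 RPM in CO12 control. In the run on chromosome 4, LOC_Os04g16770, named after its values were seen, held 38191.2 and 51268.8 RPM. Each of these sums thus mostly follows 1 locus, while the median log2 ratios of these runs were 0.99 and 0.88. The runs were delimited by their higher loci, after the values were seen. Their high medians without salt and their lack of lower loci are therefore not independent of that choice. The smaller medians under salt are not read as an effect of salt.

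Some of these loci may not be separate observations, since they share a length and have few unique reads. Of the 124 loci with under 10% unique reads, 58 had exactly the same gene length as at least 1 other of them, in 18 groups of equal length. Of these 58, 18 were at least 2-fold higher in Trichy 1 and 2 were lower, both among the 5 of 750 bp. Of all 124, 26 (21.0%) were higher and 11 (8.87%) lower, against 7.54% and 9.19% of the 1034 loci. The 3 loci of 1380 bp were all higher, with log2 ratios within 0.54 of each other, and so were the 3 of 414 bp, within 0.49. Other groups were not alike, as the 6 loci of 2253 bp, 1 of them higher, spanned 2.24 in log2 ratio and the 4 of 471 bp, 3 of them higher, spanned 1.84.

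By chromosome number, the loci of chromosome 10 stood highest, with a median log2 ratio of 0.37 over 70 loci. Of these, 16 (22.9%) were at least 2-fold higher in Trichy 1, against 7.54% of all 1034 loci. The runs on chromosome 10 described above held 6, 3 and 5 of these higher loci. The median shares of unique reads in these runs were 0.638%, 0% and 0.221%. The share on chromosome 10 thus mostly counts the loci of those runs again, and they may not be separate observations. The 40 loci of chromosome 10 with under 90% unique reads had a median of 0.82 and included 15 of the 16. The 30 with 90% or more had a median of 0.08. On chromosomes 1 and 4 the loci with under 90% unique reads also had higher medians (0.46 over 34 loci and 0.58 over 39) than those with 90% or more (0.02 over 93 and 0.08 over 71). The order was the same on chromosomes 3 (0.13 and -0.09), 6 (0.49 and 0.07), 9 (0.28 and -0.31) and 12 (0.31 and -0.04). On chromosomes 2, 5, 7, 8 and 11 the order was the other way, by most on chromosome 5, with -0.14 over 16 loci and 0.04 over 64. On chromosome 7, 11 of 73 loci (15.1%) were at least 2-fold lower as deposited and none higher, against 9.19% lower and 7.54% higher of all 1034. The share of lower loci was similar on chromosomes 9 (16.3%), 11 (14.6%) and 5 (13.8%), where 6.12%, 2.08% and 3.75% were higher. Over the 12 chromosomes, the medians of loci with 90% or more unique reads ran between -0.31 on chromosome 9 and 0.19 on chromosome 8.

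**Figure D4:**
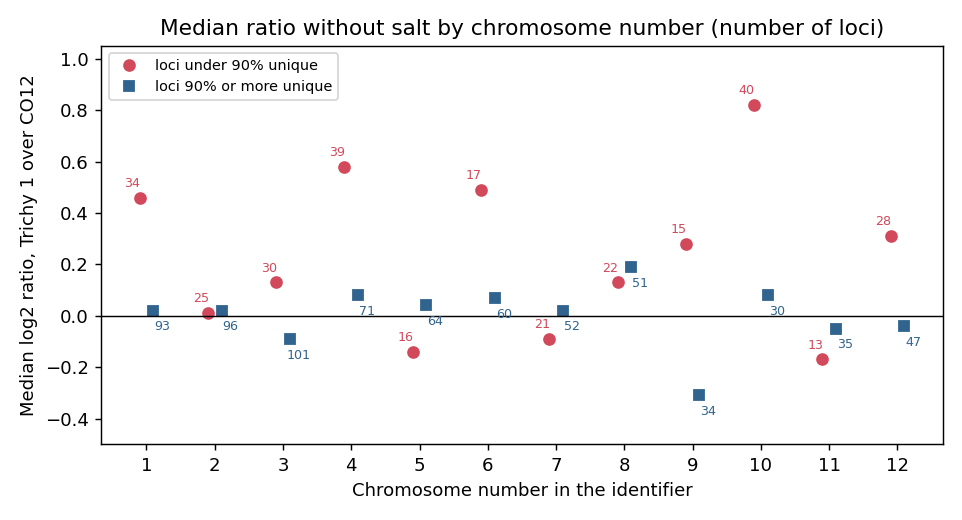
Median log2 ratio of Trichy 1 over CO12 without salt, as deposited and scaled to totals, by the chromosome number in the identifier, for loci with under 90% unique reads (circles) and with 90% or more (squares), with the number of loci beside each point. Circles reach 0.82 on chromosome 10, while squares lie between -0.31 and 0.19.

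The salt libraries, which share no library with the comparison without salt, gave the same measure in the same genotypes. Of the 1034 loci, 544 had at least 20 reads in either salt library, and of these 36 (6.62%) passed 2-fold upwards in Trichy 1 under salt and 26 (4.78%) downwards. Of the 78 loci higher without salt, 51 could be followed, and 25 of them (49.0%) were higher in Trichy 1 under salt, against 51.5% of all 544. Of the 95 that were lower, 17 could be followed, and 10 of them were lower under salt. Pearson's r between the log2 ratios without and under salt was 0.076 and Spearman's rho 0.0511 across the 544 loci, which share the libraries' composition and in part their reads. With 90% or more unique reads, r was 0.0901 over 338 loci.

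Of the 31 loci whose interval lay beyond 2-fold without salt, 30 had a smaller ratio under salt in size, LOC_Os05g44550 being the exception. Only 16 of the 19 higher and 8 of the 12 lower loci had at least 20 reads in either salt library. The values under salt given here include the rest. The 19 higher loci had a median log2 ratio of 1.71 without salt (1.37 to 2.82) and 0.07 under salt (-1.36 to 1.75). The 12 lower loci had a median of -1.85 (-3.74 to -1.26) without salt and -0.42 (-2.56 to 1.01) under salt. These loci were picked for their large ratio without salt, so the smaller size under salt is not read as an effect of salt.

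A few loci were at least 2-fold apart in both conditions. They are named for that count, after their values were seen. Of the 51 higher loci that could be followed, 4 were at least 2-fold higher under salt and 4 lower. Among all 544 loci, 36 (6.62%) were higher by that much and 26 (4.78%) lower. Of the 17 lower loci, 2 were lower under salt and 1 higher. With counts so small, the overlap is not read as a trait of these loci. LOC_Os01g24690, LOC_Os01g57966, LOC_Os04g16830 and LOC_Os06g22919 were higher in Trichy 1 in both. LOC_Os06g22919 on chromosome 6 (14968 bp) had 64.5 RPM in Trichy 1 and 13.1 RPM in CO12 without salt, a ratio of 4.94 (3.81 to 6.45). Under salt it had 96.4 RPM in Trichy 1 and 28.4 RPM in CO12, a ratio of 3.39 (2.5 to 4.68). It had 2.01% unique reads over the control libraries, and LOC_Os01g57966 had none, so these values rest on the placement of shared reads. LOC_Os01g24690, with unique reads throughout, had 20.6 and 8.45 RPM without salt and 10.4 and 4.91 RPM under salt in Trichy 1 and CO12, but the interval of its ratio under salt, 0.954 to 5.15, included equality. LOC_Os04g16830 on chromosome 4 (5048 bp), with 68.3% unique reads, had 6.57 RPM in Trichy 1 and 3.03 RPM in CO12 without salt, a ratio of 2.17 (1.12 to 4.24). Under salt it had 17.5 RPM in Trichy 1 and 5.46 RPM in CO12, a ratio of 3.2 (1.58 to 7.14), so both intervals lay above equality.

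LOC_Os05g44550 and LOC_Os06g08240 were lower in Trichy 1 in both. LOC_Os05g44550 on chromosome 5 (2574 bp) had 5.97 RPM in Trichy 1 and 22.2 RPM in CO12 without salt, and 2.49 RPM and 15.8 RPM under salt. Its ratios were 0.270 (0.160 to 0.433) and 0.157 (0.0534 to 0.386), with 2.52% unique reads. LOC_Os06g08240, with 94.9% unique reads, was therefore the locus of these 2 whose count rests on unique reads.

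The order was opposite by at least 2-fold each for 5 loci. LOC_Os01g58000, LOC_Os02g02410, LOC_Os04g16886 and LOC_Os10g21212 were higher in Trichy 1 without salt and lower under salt, and 3 of them, all but LOC_Os02g02410, had under 1% unique reads. LOC_Os02g02410 on chromosome 2 (3956 bp), with 97.1% unique reads, had 6.87 RPM in Trichy 1 and 1.91 RPM in CO12 without salt, a ratio of 3.59 (1.72 to 7.92), and 4.99 and 14.2 RPM under salt, a ratio of 0.351 (0.161 to 0.721). LOC_Os07g28160 on chromosome 7 (3641 bp), with unique reads throughout, was lower without salt, with 17.6 RPM in Trichy 1 and 60.3 RPM in CO12, and higher under salt, with 56.5 and 27.8 RPM.

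**Figure D5:**
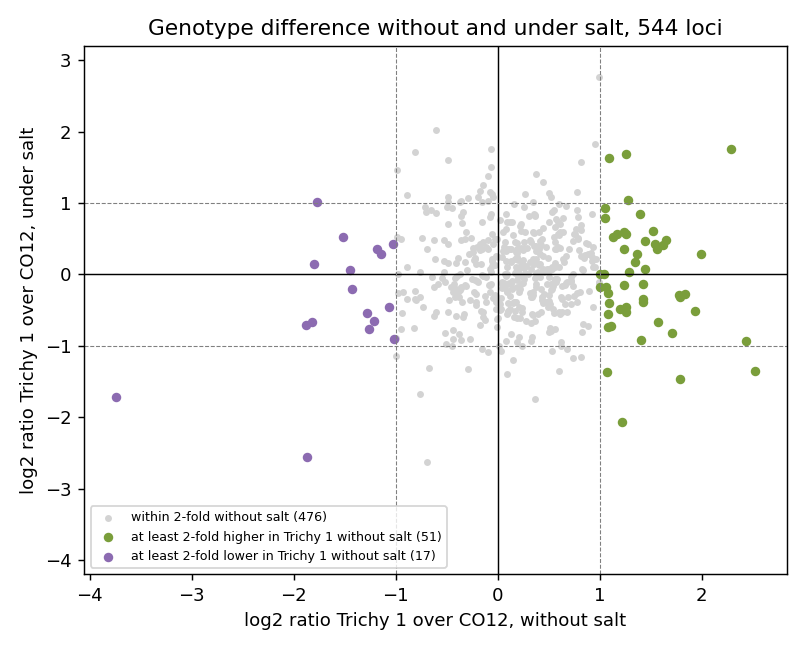
Log2 ratio of Trichy 1 over CO12 without salt (horizontal axis) and under salt (vertical axis) for the 544 loci with at least 20 reads in either library of both pairs, with dashed lines at 2-fold. Of the 51 loci at least 2-fold higher in Trichy 1 without salt, 25 lie above 0 under salt and 26 below, and of the 17 that were lower, 10 lie below 0.

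Across all 4 libraries, the loci that separated the genotypes without salt were more often extreme in CO12 control than in Trichy 1 control. CO12 control had the lowest level of the 4 for 60 of the 78 loci higher in Trichy 1, while Trichy 1 control had the highest for 45. Among the 861 loci less than 2-fold apart, CO12 control was lowest for 186 and Trichy 1 control highest for 267. For the 95 lower loci, CO12 control had the highest level for 66 and Trichy 1 control the lowest for 55, against 210 and 136 of the 861. Summed over the 78 higher loci, the level was 4009.3 RPM in Trichy 1 control and 1576.3 RPM in CO12 control, and 3224.6 and 2892.4 RPM under salt in Trichy 1 and CO12. Summed over the 95 lower loci it was 922.2 and 2339.9 RPM without salt and 973.5 and 1317.6 RPM under salt in Trichy 1 and CO12. Both control libraries chose these loci and CO12 control is the deepest of the 4, and the part of depth in these counts was not tested. The ranks and sums rest on scaling to totals, and other scalings were not tried for them.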

How the data were processed

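Leaf RNA depleted of ribosomal RNA was sequenced on the Ion Proton platform, per the labels' protocols, in 4 libraries, 1 per genotype and treatment. The authors deposited whole-number counts of total and unique gene reads per locus, per the file headers, and RPKM values, which equalled RPM (reads scaled to a library total of 1000000) per kilobase of the deposited gene length. The sources used here do not give the reference, aligner, counter or placement of shared reads. Log2 ratios of Trichy 1 over CO12 were computed from total gene reads scaled to library totals, with a prior of 0.5 counts and a minimum of 20 reads in either library. CO12 control was thinned without replacement in 100 draws. A locus counted as apart at 2-fold. Ratio intervals are exact conditional binomial (Clopper-Pearson) 95% intervals and, PCR copies being uncounted, cover counting error only. With 1 library per group no p-value was computed.

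The loci named were the 2 highest and 2 lowest ratios among those whose interval lay beyond 2-fold with at least 50% unique reads, and the 5 most abundant of each library. Others are named as chosen after their values were seen. Gene lists by annotation could not be used, because no identifier was annotated. The members and lists were chosen with earlier results of these data known. Alternatives were unique reads, TMM factors (edgeR 4.0.16), median-of-ratios factors (DESeq2 1.42.0), totals without the 20 most abundant loci, other minimums, prior and fold. The counting was tested on simulated data. R 4.3.3, Python 3.11.15, numpy 2.4.6, pandas 2.3.3 and scipy 1.17.1 were used.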

Additional observations from a re-analysis of the deposited data

Results flagged for a closer look

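For 7 of the loci named here the order of the genotypes was opposite without and under salt, with both counting intervals off equality. The log2 ratio of Trichy 1 over CO12 under salt minus that without salt was -3.37 for LOC_Os06g50300, 0.36 for the abundant LOC_Os10g21190 and 2.78 for LOC_Os07g28160. It was -3.26 for LOC_Os02g02410, -2.43 for LOC_Os01g58000, -3.87 for LOC_Os04g16886 and -3.28 for LOC_Os10g21212, and the last 3 of these had under 1% unique reads. The loci other than LOC_Os06g50300 and LOC_Os10g21190 were named because their order was opposite. Each ratio rests on 1 library per group, so none of the differences was tested.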

How the results depend on the processing

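At equal depth 131.7 loci were at least 2-fold apart. The number was 33.8 with a minimum of 100 reads (27.7 higher and 6.1 lower in Trichy 1), 14872.4 with no minimum (7284.5 and 7587.9) and 11.2 at 4-fold (7.7 and 3.6), where fewer or more loci were counted by construction. With unique reads alone it was 87.8 of 605.6 loci (50.2 higher and 37.6 lower), against 131.7 of 747.8 with all reads. The other scalings kept the total within 1.5 times but moved the share of higher loci between 22.9% with TMM factors over all loci and 64.5% with totals. The 31 loci with an interval beyond 2-fold became 18 with unique reads (9 higher and 9 lower), 19 with a minimum of 100 reads and 1 at 4-fold, LOC_Os06g08240. Of 68 loci followed under salt, 35 kept their order, against 26 of 42 with unique reads and 37 of 67 with TMM factors.

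The log2 ratio of LOC_Os04g16722, 0.08 with totals, was -0.029 with TMM factors, -0.003 with median-of-ratios factors, -0.118 with totals without the 20 most abundant loci, and -0.362 and -0.119 with TMM and median-of-ratios factors over all loci. The cause was not tested. The last pair of settings was chosen after seeing the data. LOC_Os06g50300, LOC_Os03g02255, LOC_Os06g08240 and LOC_Os02g14720 kept their sign under every scaling tried. Among the 63 values of single loci, 33 stayed within their counting interval, 25 moved and these 5 reversed. The log2 ratio of LOC_Os09g01000, 0.468 with totals, was 0.271 with totals without the 20 most abundant loci. With TMM factors over all loci it was 0.027. With those factors LOC_Os01g57968, LOC_Os10g21190 and LOC_Os03g24640 had -0.661, -0.742 and -0.688, against -0.22, -0.301 and -0.247 with totals.

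No paired analysis was possible because each group has 1 library, and for the same reason no library was left out. The alternatives for gene lists were not run, as no identifier was annotated. Near 20 reads the counting error is wide, so many differences under 2-fold in low loci lay within their counting interval.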
